A study of Mus musculus with 4 samples.

Results

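The genes that build, load and regulate the major histocompatibility complex (MHC) were compared between both lymph nodes that drain the pancreas. The 36 genes comprised the class II chains and their peptide exchange factors, the enzymes of the class II route, the class I chains, the class I peptide supply and loading machinery, the transcription regulators of both, and the lipid and metabolite presenting molecules of the CD1 and MR1 kind. They were chosen by symbol, and every non-control array probe whose transcript accession belonged to one of them was used. A probe was found for 33 of the 36 genes, 49 probes of 41174 in all. H2-Eb1, Pdia3 and Nlrc5 matched no probe by accession and were not analysed here. All 49 probes passed the filter on dim probes, which kept 27603 probes of the array.

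The animals were 4 female NOD mice aged 12 weeks, an inbred strain that develops autoimmune diabetes without treatment. RNA of the gastric node (left of the pancreas) and of the pancreatico-duodenal node (right) of each mouse was hybridised together on the mouse's own two-colour array. Gastric node RNA carried the red dye Cy5 and pancreatico-duodenal node RNA the green dye Cy3 on each of the 4 arrays, so node and dye cannot be told apart. No mouse was treated, and no other strain entered the comparison.

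Each value below is a log2 ratio, gastric over pancreatico-duodenal node, after background correction and loess normalization within the array, so a negative value is a lower level in the gastric node. Means are given ± SD over the 4 mice, and a probe was called at an adjusted p under 0.05 in limma's moderated test against 0, adjusted by the Benjamini-Hochberg method over all 27603 probes. Between 67.1% and 71.4% of probes were well above background in the gastric node channel and between 59.6% and 62.6% in the pancreatico-duodenal channel. Saturation was absent, and precision was limited by having 4 arrays. These are whole nodes, so fewer cells of a type and less RNA per cell cannot be told apart.

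MHC class II molecules carry peptides from engulfed material to CD4+ T cells. Their alpha and beta chains assemble around the invariant chain, lysosomal proteases trim that chain to a fragment called CLIP, and H2-DM removes the fragment so that peptides can bind, a step that H2-O restrains. MHC class I molecules carry peptides from the cytosol to CD8+ T cells. The immunoproteasome cuts those peptides, the TAP transporter pumps them into the endoplasmic reticulum, and tapasin holds the class I chain beside TAP until a peptide fits. The class II molecule I-A of the NOD mouse is the strongest inherited risk factor for its diabetes, and the strain makes no I-E at the cell surface because its Ea gene is defective. In a pancreatic node these molecules display islet peptides to T cells.

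Of the 49 probes 8 were lower in the gastric node, 16.3%, and 0 were higher. Over all tested probes 4.92% were lower and 2.99% were higher. The 49 were brighter as a rule, with a median log2 intensity of 12.61 against 8.15 for all tested probes. The share of lower calls differed with brightness. It was 1.9% between log2 intensities of 6 and 7, 7.25% between 10 and 11, 5.93% between 12 and 13, and 0% between 16 and 17. At an unadjusted p under 0.05 in limma, 18 of the 49 were lower and 3 higher, 42.9% in all, against 30.3% of all tested probes (14.4% lower and 16% higher). The 8 called probes belonged to 7 genes from 5 of the 6 classes, namely H2-Ab1 with 2 probes, the class I chains H2-K1 and H2-D1, the transporter subunit Tap2, tapasin (Tapbp), the lysosomal protease Lgmn and the lipid presenting molecule Cd1d1. Each of the 8 was below 0 in all 4 mice, and the means lay between -0.58 and -0.26, which is 1.49-fold to 1.20-fold lower. Such agreement goes with a call and is no further support for it. Of the 49 probes 38.8% were below 0 in all 4 mice, against 18% of all kept probes. Above 0 in all 4 mice were 12.2% and 22.8%. The signs given here belong to the loess scale. With each array centred on its median and no loess, all kept probes together had a median of 0.29 instead of 0.02, 48 of the 49 probes were above 0, and none of the 8 was called lower. On that scale 40 of the 49 probes were called higher, as were 16108 of all 27603. They included the called probes of H2-K1, H2-D1 and Tapbp and the dimmest H2-Ab1 probe, at 0.27, 0.52, 0.22 and 0.29 (limma, adjusted p = 0.013, 0.00071, 0.028 and 0.011).

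The calls also depended on which mice were in the fit. Without mouse 1 there were 13 lower calls among the 49 probes, and without mouse 2, 3 or 4 there were 0. In those 3 fits 19, 17 and 19 of the 49 had an unadjusted p under 0.05 in limma, against 20.2%, 26.7% and 20.1% of all probes. Over all probes the 1359 lower calls likewise rose to 1924 without mouse 1. They dropped to 0 without mouse 2, 5 without mouse 3 and 3 without mouse 4.

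**Figure D1:**
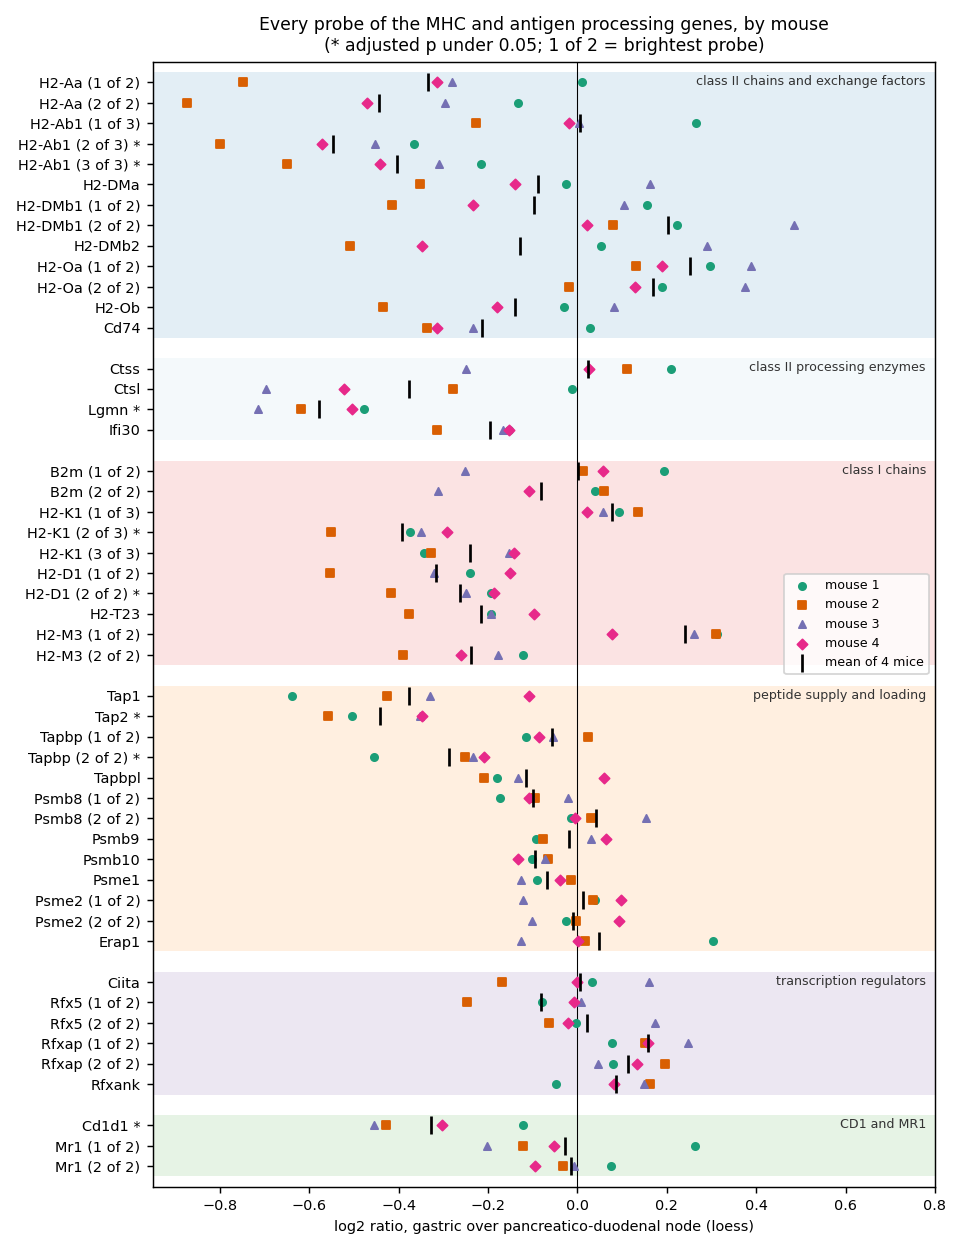
Log2 ratio (gastric over pancreatico-duodenal node, loess scale) of every probe of the 33 measured genes in each of the 4 mice, with the mean as a bar and the 8 called probes starred; numbers in brackets rank a gene's probes by brightness. The points of the starred probes lie below 0 in every mouse, the proteasome probes lie close to 0, and mouse 2 is the lowest point for most class II probes; with median centring 48 of the 49 means are above 0.

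Class I and class II genes share a promoter element bound by the RFX complex, CREB and NF-Y, onto which the coactivators CIITA (class II) and NLRC5 (class I) are recruited. The sequences below show the part of that element which can be read by eye, for 4 class II genes and 4 class I genes with contrasting ratios. They are the 120 bases before the RefSeq transcript start, 5′ to 3′ on the gene's strand, from assembly GRCm38.p6, which is the C57BL/6J strain and not NOD. Capitals mark a Y box core, ATTGG, and the X2 box core TGACG or TGATG that precedes it, with overlapping X2 cores run together.
H2-Aa, class II alpha chain, minus strand of chr17:34287824-34287943: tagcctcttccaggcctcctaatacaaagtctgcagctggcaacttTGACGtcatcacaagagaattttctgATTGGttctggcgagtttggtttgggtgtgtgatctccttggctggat
H2-DMb1, H2-DM beta chain, plus strand of chr17:34153071-34153190: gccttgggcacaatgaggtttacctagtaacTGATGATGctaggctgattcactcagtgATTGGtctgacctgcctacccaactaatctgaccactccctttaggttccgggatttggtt
H2-Ob, H2-O beta chain, plus strand of chr17:34238785-34238904: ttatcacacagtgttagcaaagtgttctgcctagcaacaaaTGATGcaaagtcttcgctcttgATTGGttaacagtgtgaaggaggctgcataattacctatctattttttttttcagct
H2-Oa, H2-O alpha chain, plus strand of chr17:34092259-34092378: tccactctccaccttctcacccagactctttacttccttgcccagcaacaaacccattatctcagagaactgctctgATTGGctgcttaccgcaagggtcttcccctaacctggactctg
B2m, class I light chain, plus strand of chr2:122147567-122147686: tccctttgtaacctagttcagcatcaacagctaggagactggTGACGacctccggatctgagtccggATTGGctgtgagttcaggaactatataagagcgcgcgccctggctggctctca
H2-K1, class I heavy chain, minus strand of chr17:34000348-34000467: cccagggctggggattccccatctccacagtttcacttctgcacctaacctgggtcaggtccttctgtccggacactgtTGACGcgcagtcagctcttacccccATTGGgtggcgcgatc
H2-D1, class I heavy chain, plus strand of chr17:35262974-35263093: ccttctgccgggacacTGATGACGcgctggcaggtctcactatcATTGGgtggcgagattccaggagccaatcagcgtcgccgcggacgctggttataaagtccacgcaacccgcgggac
H2-M3, nonclassical class I heavy chain, plus strand of chr17:37270114-37270233: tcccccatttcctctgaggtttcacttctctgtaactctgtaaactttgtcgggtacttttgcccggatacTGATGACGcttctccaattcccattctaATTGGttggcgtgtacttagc

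An X2 core followed on the same strand by a Y core starting 22 to 28 bases later was found in 4 of 5 class I genes and 5 of 7 class II genes that had a promoter window of 250 bases before the start. The class I genes were B2m, H2-D1, H2-K1 and H2-M3, and the class II genes H2-Aa, H2-DMb1, H2-DMb2, H2-Eb1 and H2-Ob. H2-T23, H2-DMa and H2-Oa had no such pair, and neither did any of the 4 enzymes, the 9 loading genes, the 2 regulators or the 1 CD1 or MR1 gene with a window. Of all 32851 mouse windows of this length 0.429% held the pair on the gene's strand and 0.715% on either strand. The parts are common by themselves, the Y core in 33.85% and an X2 core in 46.92% of windows on either strand. The spacing range was set after looking at promoters of these genes, so their count is a description. Genes with the pair had node ratios on both sides of 0, as the values below show, and a match of letters says nothing about binding in these nodes. H2-Ab1, Cd74, Ciita, Tap2, Cd1d1, Tapbpl, Nlrc5 and Rfxap had no promoter window.

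H2-Ab1, the beta chain of I-A, gave both called class II probes. Its middle probe by brightness, printed 10 times on the array, was at -0.37, -0.80, -0.45 and -0.57 in mice 1 to 4, a mean of -0.55 ± 0.19 (limma, adjusted p = 0.026). Its dimmest probe was at -0.22, -0.65, -0.31 and -0.44, a mean of -0.40 ± 0.19 (limma, adjusted p = 0.042). On both probes mouse 2 was lowest and mouse 1 highest. The brightest H2-Ab1 probe differed from these. It was at 0.26, -0.23, 0.0044 and -0.02, a mean of 0.0056 ± 0.20 (limma, adjusted p = 0.971), with the same mice at the ends.

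H2-Aa, the alpha chain of I-A, was at 0.01, -0.75, -0.28 and -0.31 on its brighter probe, a mean of -0.33 ± 0.31 (limma, adjusted p = 0.13). Its dimmer probe was at -0.13, -0.87, -0.30 and -0.47, a mean of -0.44 ± 0.32 (limma, adjusted p = 0.077). Mouse 2 was again far below the others and mouse 1 near 0, and the spread over mice was wider than that of H2-Ab1. Without mouse 1 both H2-Aa probes were called, at -0.45 (limma, adjusted p = 0.044) and -0.55 (adjusted p = 0.036). Neither was called when mouse 2, 3 or 4 was left out instead. Without mouse 2 they were at -0.20 and -0.30 (limma, adjusted p = 0.289 and 0.182).

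The invariant chain Cd74, which blocks the groove until the molecule reaches the lysosome, was at 0.03, -0.34, -0.23 and -0.31. Its mean was -0.21 ± 0.17 (limma, adjusted p = 0.119), with mouse 1 alone above 0. Without mouse 1 it was called lower, at -0.29 (limma, adjusted p = 0.026). Leaving out mouse 2, 3 or 4 instead gave -0.17, -0.21 and -0.18, with no call (limma, adjusted p = 0.329, 0.223 and 0.332). The median of the 6 probes of H2-Aa, H2-Ab1 and Cd74 was -0.06, -0.70, -0.29 and -0.38 in mice 1 to 4, against 0.03, 0.01, 0.01 and 0.01 for all kept probes.

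The peptide exchange factors did not share these values. H2-DMa and H2-DMb1 encode the chains of H2-DM, and H2-DMb2 is another beta chain gene. H2-DMa was at -0.03, -0.35, 0.16 and -0.14, a mean of -0.09 ± 0.22 (limma, adjusted p = 0.523). H2-DMb1 had a mean of -0.10 ± 0.27 on its brighter probe and 0.20 ± 0.21 on its dimmer one (limma, adjusted p = 0.563 and 0.175). H2-DMb2 was at 0.05, -0.51, 0.29 and -0.35, a mean of -0.13 ± 0.37 (limma, adjusted p = 0.555). In these genes mouse 2 was lowest and mouse 3 highest, apart from the H2-DMb1 probes, where mouse 4 was lowest on the dimmer one and mouse 1 highest on the brighter one. H2-DMb1 and H2-DMb2 are near copies of each other, and how far their probes tell them apart was not tested.

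H2-Oa, the alpha chain of H2-O, a molecule made mostly by B cells, had the highest mean of the 49 probes. Its brighter probe was at 0.30, 0.13, 0.39 and 0.19, above 0 in every mouse, with a mean of 0.25 ± 0.11 (limma, adjusted p = 0.056). Its dimmer probe had a mean of 0.17 ± 0.16 (limma, adjusted p = 0.178), with mouse 2 at -0.02. The beta chain gene H2-Ob was at -0.03, -0.44, 0.08 and -0.18, a mean of -0.14 ± 0.22 (limma, adjusted p = 0.335), so the chains of H2-O lay on opposite sides of 0 with neither called on the loess scale. With the arrays also scaled to a common spread, H2-Oa was called higher on its brighter probe, at 0.25 (limma, adjusted p = 0.046). With median centring both H2-Oa probes were called, at 0.88 and 0.77. On that scale 40 of the 49 probes were called higher, as were 16108 of all 27603. The median of all kept probes as bright as those of H2-Oa was then 0.62.

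Over all their probes, the median of the I-A chains and Cd74 was in each mouse below that of the 7 H2-DM and H2-O probes. The difference was -0.22, -0.35, -0.58 and -0.24 in mice 1 to 4, a mean of -0.35 ± 0.17, below 0 in 4 of 4 mice. With median centring the medians over the probe means were 0.33 and 0.52, in the same order. On the brightest probe of each gene alone the difference was -0.02, 0.08, -0.40 and -0.14, a mean of -0.12 ± 0.20, below 0 in 3 of 4 mice. It was not tested, since the classes were chosen with these values known. Of the 13 class II chain and exchange probes mouse 2 was lowest on 12, 92.3%, whereas mouse 2 was lowest on 21.7% of all kept probes. None of the 13 had mouse 1 lowest.

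B cells, dendritic cells and macrophages all carry class II molecules, and lists of their marker genes were read in the same way. Of 12 B cell markers, among them Ms4a1 and Cd79a, 12 were measured and 0 were called in limma, with 3 at an unadjusted p under 0.05, and their median was 0.24, -0.03, 0.15 and -0.05 in mice 1 to 4. Of 11 dendritic cell markers 9 were measured and 5 were lower, namely Fscn1, Flt3, Snx22, Itgax and Batf3, with list medians of -0.32, -0.30, -0.60 and -0.31. The uncalled ones were Xcr1 at -0.52, Siglech at -0.06, Cd209a at 0.07 and Clec10a at 0.31. Of 12 macrophage markers 10 were measured and 6 were lower, among them Adgre1 at -1.36, Cd163 at -1.26 and C1qa at -0.93, with list medians of -0.27, -0.79, -1.14 and -0.79. Mouse 3 had the lowest macrophage and dendritic cell medians, while mouse 2 had the lowest class II median. With median centring 5 of the 9 dendritic cell markers and 6 of the 10 macrophage markers were below 0. T cell markers, of which 2 of 11 measured were higher (Cd3g and Cd28), had medians of -0.09, 0.14, 0.10 and 0.27. Over all tested probes 4.92% were lower and 2.99% were higher. The share of these cell types in the ratios of the presentation genes was not tested.

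RNA of the tissue around the nodes also differed between mice. Of 14 exocrine pancreas markers 0 were called in limma, and 0 had an unadjusted p under 0.05, with list medians of -0.23, 0.21, -4.75 and 0.85, so that mouse 3 stood apart. Of 7 measured adipocyte markers 0 were called, also 0 at an unadjusted p under 0.05, with medians of 1.72, -1.93, 0.36 and -1.67. The adipocyte medians were highest in mouse 1 and lowest in mouse 2, as the medians of the I-A chains and Cd74 were, whereas the exocrine medians had mouse 4 highest and mouse 3 lowest. Their part in the result was not tested.

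**Figure D2:**
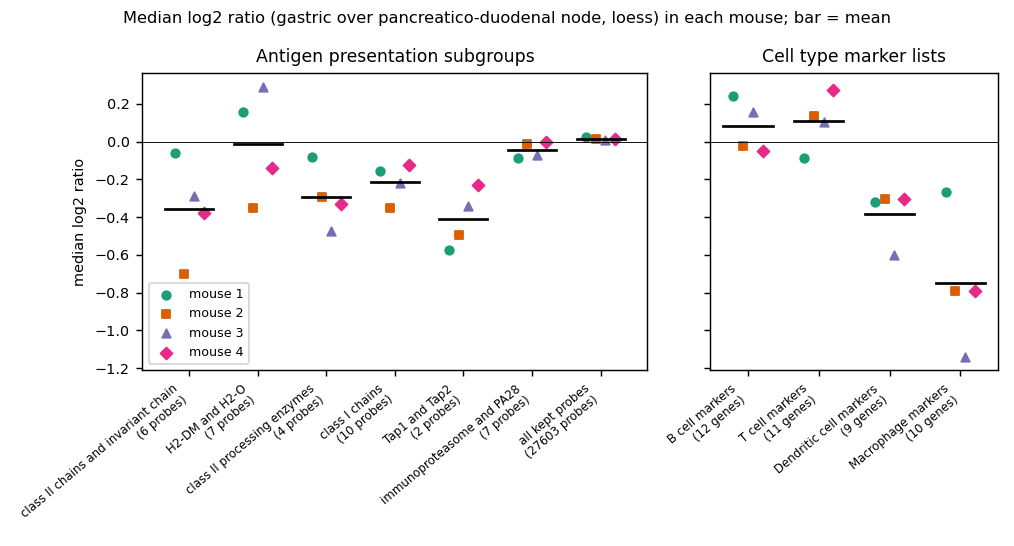
Median log2 ratio (gastric over pancreatico-duodenal node, loess scale) of each gene subgroup in each of the 4 mice, left, and of 4 cell type marker lists, right, with the mean over mice as a bar. The I-A chains with Cd74 lie below H2-DM and H2-O in every mouse when all probes are used (in 3 of 4 with the brightest probe of each gene), the immunoproteasome lies within 0.09 of 0, and the macrophage markers range from -0.27 to -1.14; with median centring the medians of all 6 gene subgroups are above 0.

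Among the enzymes of the class II route the call was that of Lgmn, an asparaginyl endopeptidase of the lysosome that cuts proteins and can start the cleavage of the invariant chain. It was at -0.48, -0.62, -0.72 and -0.50 in mice 1 to 4, a mean of -0.58 ± 0.11 (limma, adjusted p = 0.020), 1.49-fold lower in the gastric node. This was the lowest mean of the 49 probes, and its spread was narrow beside its size. Mouse 3 was lowest on Lgmn and in the macrophage marker median given above, and it was lowest on 30.3% of all kept probes. Among single macrophage markers Adgre1 and C1qa had mouse 3 lowest, while Cd163 and Csf1r had mouse 4 lowest. Whether macrophages have a part in the ratio of Lgmn was not tested.

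Ctsl, the cathepsin that trims the invariant chain in thymic epithelium and is also made by macrophages, was at -0.01, -0.28, -0.70 and -0.52. Its mean was -0.38 ± 0.30 (limma, adjusted p = 0.094), with mouse 3 lowest and mouse 1 near 0. Without mouse 1 it was called lower, at -0.50 (limma, adjusted p = 0.025). Leaving out mouse 2, 3 or 4 instead gave -0.41, -0.27 and -0.33, with no call (limma, adjusted p = 0.229, 0.191 and 0.281). Ctss, the cathepsin that trims the invariant chain in B cells and dendritic cells, was at 0.21, 0.11, -0.25 and 0.03, a mean of 0.02 ± 0.20 (limma, adjusted p = 0.858), with 1 mouse of 4 below 0. Ifi30, the lysosomal thiol reductase that opens disulfide bonds of antigens, was at -0.15, -0.31, -0.17 and -0.15, a mean of -0.20 ± 0.08 (limma, adjusted p = 0.066). Mouse 3 was lowest on 3 of the 4 enzymes and mouse 2 on the other, unlike the class II chains.

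The class I heavy chains H2-K1 and H2-D1 are the classical molecules that show peptides to CD8+ T cells. On its middle probe by brightness H2-K1 was at -0.37, -0.55, -0.35 and -0.29, a mean of -0.39 ± 0.11 (limma, adjusted p = 0.027). Its dimmest probe had a mean of -0.24 ± 0.11 (limma, adjusted p = 0.057), below 0 in 4 of 4 mice. The brightest H2-K1 probe, printed 10 times, was at 0.09, 0.13, 0.06 and 0.02, above 0 in every mouse, a mean of 0.08 ± 0.05 (limma, adjusted p = 0.298).

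H2-D1 was at -0.24, -0.55, -0.32 and -0.15 on its brighter probe, a mean of -0.32 ± 0.17 (limma, adjusted p = 0.057). On its dimmer probe it was at -0.19, -0.42, -0.25 and -0.19, a mean of -0.26 ± 0.11 (limma, adjusted p = 0.049). Both were below 0 in all mice with mouse 2 lowest, so the pair had like values on either side of the threshold. Class I genes are many near copies, the array was designed on reference transcripts, and how far these probes read the NOD alleles of H2-K1 and H2-D1 or other class I genes was not tested.

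B2m, the light chain that every class I molecule needs, was at 0.19, 0.01, -0.25 and 0.06 on its brighter probe, a mean of 0.0023 ± 0.19 (limma, adjusted p = 0.988). Its other probe, printed 10 times, had a mean of -0.08 ± 0.17 (limma, adjusted p = 0.492), with mouse 3 lowest on both. Neither B2m probe was called, as was the case for 6 of the 8 heavy chain probes.

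H2-T23 encodes Qa-1, a nonclassical chain that engages NKG2A on natural killer cells. It was at -0.19, -0.38, -0.19 and -0.10, a mean of -0.22 ± 0.12 (limma, adjusted p = 0.077), below 0 in 4 of 4 mice. H2-M3, which presents formylated peptides, gave opposite values on its probes. The brighter was at 0.31, 0.31, 0.26 and 0.08, a mean of 0.24 ± 0.11 (limma, adjusted p = 0.059), and the dimmer at -0.12, -0.39, -0.18 and -0.26, a mean of -0.24 ± 0.12 (limma, adjusted p = 0.063).

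Both subunits of the peptide transporter were below 0 in every mouse. Tap1 was at -0.64, -0.43, -0.33 and -0.11, a mean of -0.38 ± 0.22 (limma, adjusted p = 0.057). Tap2 was at -0.51, -0.56, -0.35 and -0.35, a mean of -0.44 ± 0.11 (limma, adjusted p = 0.023), 1.36-fold lower. The means were alike, and the wider spread of Tap1, highest in mouse 4, left it above the threshold. With median centring they were at 0.13 and 0.09, well under the median of 0.55 for probes of like brightness.

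Tapasin, the bridge between TAP and the class I chain, had probes to different transcript accessions. The dimmer was at -0.46, -0.25, -0.23 and -0.21, a mean of -0.29 ± 0.11 (limma, adjusted p = 0.044), and the brighter at -0.12, 0.02, -0.06 and -0.09, a mean of -0.06 ± 0.06 (limma, adjusted p = 0.434). Mouse 1 was lowest on both. Its relative Tapbpl, an editor of class I peptides outside the loading complex, had a mean of -0.12 ± 0.12 (limma, adjusted p = 0.246). Erap1, which trims peptides in the endoplasmic reticulum, had a mean of 0.05 ± 0.18 (limma, adjusted p = 0.692), with mouse 1 highest at 0.30.

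The immunoproteasome subunits Psmb8, Psmb9 and Psmb10, which replace the standard catalytic subunits, and the PA28 activator subunits Psme1 and Psme2 had the narrowest values. Of their 7 probes 0 were called in limma, 0 had an unadjusted p under 0.05, and the means lay between -0.10 and 0.04. Psmb10 was at -0.10, -0.07, -0.07 and -0.13, a mean of -0.09 ± 0.03 (limma, adjusted p = 0.199). Psmb9 was at -0.09, -0.08, 0.03 and 0.06, a mean of -0.0186 ± 0.08 (limma, adjusted p = 0.823). The 2 Psmb8 probes had means of -0.10 ± 0.06 and 0.04 ± 0.08 (limma, adjusted p = 0.214 and 0.599).

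Over all their probes, the class I chains and the transporter lay in each mouse below the immunoproteasome on this scale, but for the class I chains this turned with the choice of probe. The median of the class I probes minus that of the immunoproteasome and PA28 probes was -0.07, -0.34, -0.15 and -0.12, a mean of -0.17 ± 0.12. The same difference for Tap1 and Tap2 was -0.48, -0.48, -0.27 and -0.22, a mean of -0.36 ± 0.14. Both were below 0 in 4 of 4 mice and were not tested. On the brightest probe of each gene alone the class I difference was 0.18, 0.08, -0.12 and 0.06, a mean of 0.05 ± 0.13, while that of the transporter was -0.34 ± 0.13 and below 0 in 4 of 4 mice. With median centring the class I, transporter and immunoproteasome probes had medians of 0.54, 0.11 and 0.70, which keeps the immunoproteasome uppermost. Tap1 and Psmb9 share a bidirectional promoter, and their mean ratios were -0.38 and -0.0186.

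CIITA, the coactivator on which class II transcription depends, was at 0.03, -0.17, 0.16 and -0.0011 in mice 1 to 4. Its mean was 0.0059 ± 0.14 (limma, adjusted p = 0.96), with mouse 2 lowest and mouse 3 highest. The subunits of RFX, the complex that binds the X box, were also uncalled, and 0 of the 6 regulator probes passed in limma, with 1 at an unadjusted p under 0.05. That probe was the brighter one of Rfxap, at 0.08, 0.15, 0.25 and 0.16, a mean of 0.16 ± 0.07 (limma, adjusted p = 0.095). Rfxank had a mean of 0.09 ± 0.10 and Rfx5 of -0.08 ± 0.12 on its brighter probe (limma, adjusted p = 0.325 and 0.386). The dimmer Rfx5 probe was well above background in the pancreatico-duodenal channel on 1 of 4 arrays and carries little weight.

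Cd1d1 presents lipids to natural killer T cells, and Mr1 presents vitamin B metabolites to mucosal associated invariant T cells. Cd1d1 was at -0.12, -0.43, -0.46 and -0.30, a mean of -0.33 ± 0.15 (limma, adjusted p = 0.047), 1.25-fold lower, with mouse 1 nearest to 0. The 2 Mr1 probes had means of -0.03 ± 0.20 and -0.0154 ± 0.07 (limma, adjusted p = 0.839 and 0.85), and mouse 1 was above 0 on both.

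Several results turned on which probe of a gene was read. Of the 14 genes with more than 1 probe, 8 had means on both sides of 0, and of the 4 called genes among them 0 were called on all of their probes. In 9 of the 14 the brightest probe had a higher ratio than the dimmest. For H2-Ab1 that difference was 0.48, 0.42, 0.31 and 0.42 in mice 1 to 4, a mean of 0.41 ± 0.07. It was 0.48 ± 0.16 for H2-M3, 0.32 ± 0.15 for H2-K1 and 0.23 ± 0.10 for Tapbp, above 0 in 4 of 4 mice each. Psmb8 went the other way, at -0.14 ± 0.03, and so did H2-DMb1 at -0.30 ± 0.18, below 0 in all mice. Repeated spots were far closer together. Over the 9 or 10 spots of the B2m, H2-K1 and H2-Ab1 probes that were printed repeatedly, the SD within an array was 0.015 to 0.046. With 1 probe a gene, the brightest, Lgmn, Tap2 and Cd1d1 were called and H2-Ab1, H2-K1, H2-D1 and Tapbp were not. That is 3 of the 33 genes lower and 0 higher, where 949 of all 21320 features were lower and 659 higher.

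**Figure D3:**
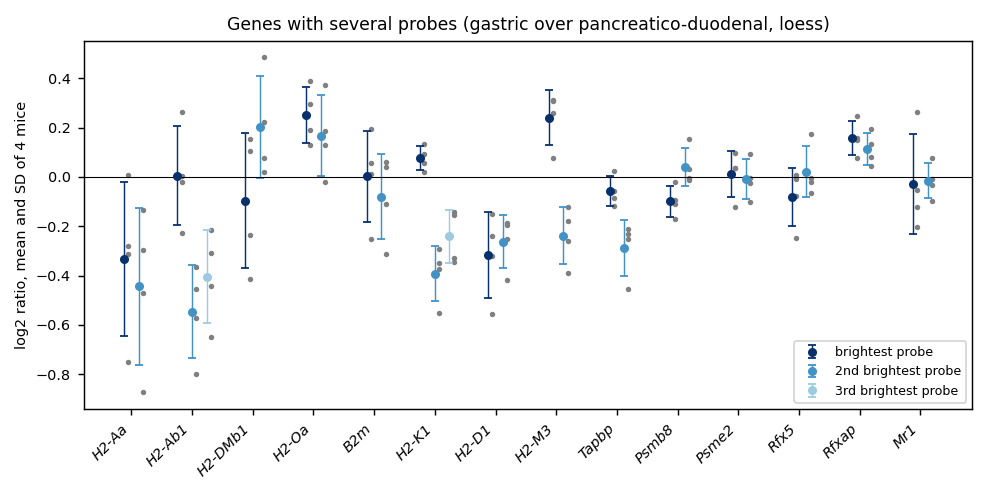
Log2 ratio (gastric over pancreatico-duodenal node, loess scale) of each probe of the 14 genes with several probes, as the mean and SD of 4 mice with the single mice as grey points, ordered by brightness within a gene. The brightest H2-Ab1 and H2-K1 probes lie at or above 0 and the dimmer ones below, H2-M3 has probes at 0.24 and -0.24, and H2-Aa, H2-D1 and H2-Oa probes stay together; with median centring every probe shown except the dimmer Rfx5 probe is above 0.

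The brightest probes of the array had positive ratios as a rule, and some presentation genes are among the brightest. Between mean log2 intensities of 16 and 17 the median ratio of the 80 kept probes was 0.20 and 41.2% of them were higher in the gastric node. Of the 49 probes 4 lay there, namely the brightest of H2-Ab1, of H2-K1 and of H2-D1, and Cd74. Set against the median of probes in the same 1-unit bin of brightness, a comparison added after the values were seen, 37 of the 49 were below it with loess and 36 with median centring. The 6 probes of the I-A chains and Cd74 were below it in both, as were 9 of the 10 class I probes and both transporter probes. Of the 7 H2-DM and H2-O probes 4 were below it in both. After subtraction of that median the brightest H2-Ab1 probe was at -0.20 and the brightest H2-K1 probe at -0.13, neither called, while Cd74, at -0.42, and the brightest H2-D1 probe, at -0.52, were called lower (limma, adjusted p = 0.035 and 0.022).

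**Figure D4:**
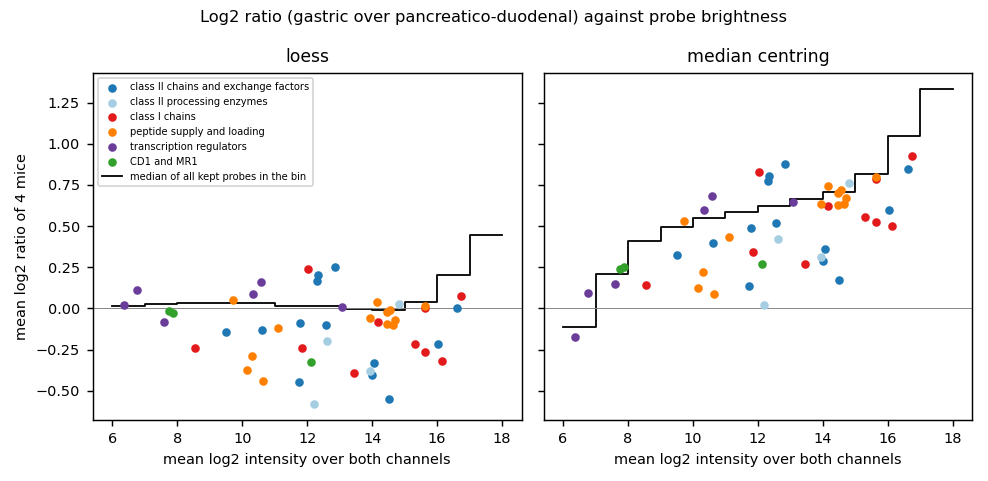
Mean log2 ratio (gastric over pancreatico-duodenal node) of the 49 probes against their mean log2 intensity over both channels, with loess, left, and with median centring, right; the line is the median of all kept probes in each 1-unit bin. With loess 33 of the 49 probes lie below 0, with median centring 1 does, and 37 and 36 lie below the line.

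Other genes of antigen processing, from a list of 39 that holds none of the 36, were measured for 32, each on its brightest probe. Of these 32 genes 5 were lower and 0 higher in limma, while over all tested probes 4.92% were lower and 2.99% were higher. At an unadjusted p under 0.05 in limma there were 14 of the 32, against 30.7% of all features on 1 probe a gene. The median of the 32 was -0.07, against 0.03 for those features. The lower genes were the lysosomal protease Ctsd at -0.75, the cathepsin inhibitor Cst3 at -0.59, Fcgrt, the class I related receptor that recycles antibodies, at -0.81, the standard proteasome subunit Psmb7 at -0.39, and the chaperone Calr of the class I loading complex at -0.31. With median centring 5 of the 32 genes were below 0. Psmb7, the standard counterpart of Psmb10, was below 0 in 4 of 4 mice, at -0.48, -0.42, -0.34 and -0.32.

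Interferon gamma induces both class I and class II genes. Of 20 genes of its axis 20 were measured, 1 was higher, 0 were lower, and the median was 0.03. Over all tested probes 2.99% were higher and 4.92% were lower. The higher gene was Ifng itself, at 0.49, 1.14, 0.73 and 0.64, a mean of 0.75 ± 0.28 (limma, adjusted p = 0.026), above 0 in all mice and highest in mouse 2. Its other probe had a mean of 0.51 ± 0.19 (limma, adjusted p = 0.030). The value of Irf1, a transcription factor that interferon gamma induces, depended on the probe. It was at -0.0047 ± 0.06 on its brightest probe and at -0.36 ± 0.12 on a dimmer one (limma, adjusted p = 0.956 and 0.030).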

How the data were processed

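RNA of both pancreatic nodes of 4 mice was amplified, labelled and hybridised to 1 two-colour array per mouse, all on 1 slide, per the labels' protocols and the file headers. The deposited scanner files hold mean and background intensity for 45018 spots in both channels, made with Agilent Feature Extraction 10.2.1.3 per the file headers. They also hold the authors' log10 ratio of red over green after the software's own processing. The authors' deposited series table holds log2 values, which equalled the log2 ratio of processed signals within 5.11e-05. Its column medians were -0.15, -0.06, -0.03 and -0.03.

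Background was corrected with normexp (offset 50), followed by loess within arrays, in limma 3.58.1 (R 4.3.3, data.table version 1.17.8), with control and outlier spots at weight 0. Outlier spots, at most 0.43% of an array, were then left out, and spots of a probe averaged. A probe stayed in if one channel was well above background on 3 or more of the 4 arrays, the same channel each time. The mean log2 ratio was tested against 0 with lmFit and eBayes, every probe by itself, with Benjamini-Hochberg adjustment. The steps were tested on simulated data.

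Probes were named by accession, without version, through a RefSeq table of GRCm38.p6, which named 24844 of 41174 probes. Every matching probe of each gene is reported, and list genes by their brightest kept probe. List genes named in the text are those called, with Irf1, the uncalled B cell examples and the uncalled dendritic cell markers named after their values were seen. The members and lists were chosen with earlier results of these data known. Coordinates are those of the RefSeq promoter windows. Probe sequences were not used here. Alternatives covered background correction, normalization within and between arrays, the filter, the choice of probe, the variance model, the series table, each mouse left out and, added after the data were seen, subtraction of the median ratio at like brightness.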

Additional observations from a re-analysis of the deposited data

Results flagged for a closer look

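Ifi30, the lysosomal thiol reductase, had 1 mouse far from the others. Mouse 2 was at -0.31, while the other 3 mice lay between -0.17 and -0.15, a gap of 0.91 of the whole range of the 4 values. Chance alone marks about 1 in 20 groups of values in this way. Of the 55 groups looked at, the single probes and the class medians, 1 was marked, so this flag is no more than chance would give.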

How the results depend on the processing

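The signs of the presentation genes depended on the normalization within arrays, and their calls on the mice in the fit. In place of the 8 lower calls there were 11 with the arrays scaled to a common spread, 11 after subtraction of the median at like brightness, 4 with a normexp offset of 0, 2 with the scanner software's processed signals, 2 with the authors' series table, 3 with 1 probe a gene, and 0 with median centring or with a trended and robust variance. Higher calls among the 49 probes numbered 40 with median centring and 2 with the arrays scaled to a common spread. Over all probes the 1359 lower calls became 1668 with scaled arrays, 1577 after subtraction of the median at like brightness and 1172 with the offset of 0. With 1 probe a gene they were 949 of 21320 features. They became 738 with the processed signals, 739 with the series table, 2859 with median centring and 0 with the trended and robust variance. In the order of these last settings the 826 higher calls became 494, 494, 16108 and 0, and they were 1322 with scaled arrays. With each mouse left out in turn, higher calls over all probes ranged from 0 to 1128, lower calls from 0 to 1924 and lower calls among the 49 probes from 0 to 13. With the trended and robust variance 21 of the 49 probes had an unadjusted p under 0.05 in limma, as they had without it, against 30.9% of all probes, and with median centring 41 had, against 71.8% of all probes.

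With median centring the class medians were 0.49 for class II chains and exchange factors, 0.37 for the enzymes, 0.53 for class I, 0.63 for loading, 0.37 for the regulators and 0.24 for CD1 and MR1. With 1 probe a gene the class I median was -0.017 instead of -0.21. The called probes remained called under 6 to 11 of the 15 or 16 alternatives, and each turned above 0 with median centring. Those then called higher included the called probes of H2-K1, H2-D1 and Tapbp and the dimmest H2-Ab1 probe.

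Single probes also changed sign, with probes ranked by brightness in brackets. With median centring the values were H2-Aa (brightest) 0.36, H2-Aa (dimmer) 0.14, H2-Ab1 (middle) 0.17, H2-Ab1 (dimmest) 0.29, H2-DMa 0.49, H2-DMb1 (brightest) 0.52, H2-DMb2 0.40, H2-Ob 0.32, Cd74 0.60, Ctsl 0.31, Lgmn 0.0194, Ifi30 0.42, B2m (dimmer) 0.62, H2-K1 (middle) 0.27, H2-K1 (dimmest) 0.34, H2-D1 (brightest) 0.50, H2-D1 (dimmer) 0.52, H2-T23 0.55, H2-M3 (dimmer) 0.14, Tap1 0.13, Tap2 0.0881, Tapbp (brightest) 0.63, Tapbp (dimmer) 0.22, Tapbpl 0.44, Psmb8 (brightest) 0.63, Psmb9 0.70, Psmb10 0.63, Psme1 0.67, Psme2 (dimmer) 0.72, Rfx5 (brightest) 0.15, Rfx5 (dimmer) -0.17, Cd1d1 0.27, Mr1 (brightest) 0.25 and Mr1 (dimmer) 0.24.
With the scanner software's processed signals they were H2-Ab1 (brightest) -0.0437, B2m (brightest) -0.0587, H2-K1 (brightest) -0.0188 and Psme2 (brightest) -0.0555, and with the series table H2-Ab1 (brightest) -0.0437, B2m (brightest) -0.0587, H2-K1 (brightest) -0.0188 and Psme2 (brightest) -0.0555.
With scaled arrays they were H2-Ab1 (brightest) -0.0064 and B2m (brightest) -0.0048, and with loess and then the median of probes at 0 H2-Ab1 (brightest) -0.0098, B2m (brightest) -0.0131, Psme2 (brightest) -0.0034 and Ciita -0.0094.
After subtraction of the median at like brightness they were H2-Ab1 (brightest) -0.20, B2m (brightest) -0.0389, H2-K1 (brightest) -0.13, Psmb9 0.0068, Psme2 (brightest) -0.0292 and Psme2 (dimmer) 0.0162.
With each mouse left out in turn the values that changed sign ranged as follows: H2-Ab1 (brightest) -0.0807 to 0.0831, H2-DMb1 (brightest) -0.18 to 0.0087, Ctss -0.0374 to 0.12, B2m (brightest) -0.0612 to 0.0869, Psmb9 -0.0465 to 0.0057, Psme2 (brightest) -0.0162 to 0.0567, Psme2 (dimmer) -0.0434 to 0.0214, Erap1 -0.0363 to 0.11, Ciita -0.0454 to 0.0639, Rfx5 (dimmer) -0.0289 to 0.0506, Mr1 (brightest) -0.13 to 0.0295 and Mr1 (dimmer) -0.0459 to 0.0115.
None of these had been called in limma on the loess scale apart from the 8 probes under median centring. The test of each mouse's own ratio against 0 is itself the paired analysis. Signal over background limited 1 of the 49 probes, the dimmer one of Rfx5. The cause of the changes was not tested.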
